A study of Mus musculus with 6 samples.

Results

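Trp53, its partners in the Mdm2 feedback loop and its paralogs were followed in colorectal tumors that had kept or lost Trp53 in the intestinal epithelium. The set holds 8 of the 54167 genes listed, found in the table by gene name: Trp53 with its paralogs Trp63 and Trp73, the Mdm proteins Mdm2 and Mdm4, the phosphatase Ppm1d, and the ubiquitin ligases Rchy1 and Cop1. RNA-seq had been done on whole colon tumors from 2 genotypes of C57BL/6J mice, 3 tumors each. Both genotypes carried conditional Trp53 alleles, in which loxP sites flank most of the gene. Trp53fl/fl mice had no Cre, so that their alleles were intact, whereas VP mice also carried Pvillin-Cre, which deletes the flanked part. Male mice of 8 weeks received 10 mg/kg of the carcinogen azoxymethane (AOM) and then repeated 7-day courses of 2.5% dextran sulfate sodium (DSS), an agent that injures the colon lining, and tumors were examined on day 98. The villin promoter drives Cre in intestinal epithelial cells only, and so immune, stromal and endothelial cells of a VP tumor keep Trp53. In such bulk tissue, fewer cells of a type and less RNA per cell cannot be told apart. The labels give neither the mouse of each tumor nor a batch, and p-values measure the spread between these 6 tumors.

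p53, the product of Trp53, is a transcription factor that is kept scarce in unstressed cells and accumulates after DNA damage. It switches on Mdm2, whose product is a ubiquitin ligase that marks p53 for destruction, which closes a negative feedback loop. Mdm4, Ppm1d, Rchy1 and Cop1 also restrain p53, and some of their genes are themselves induced by it, so the loop has several arms. Loss of p53 is among the most common late events in human colorectal cancer.

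The promoters are shown first, because the loop rests on p53 binding near its own regulators. RefSeq windows on GRCm38.p6 that run from 250 bases before to 50 bases after a gene start were searched on both strands for the p53 half-site consensus, a stretch of 10 bases to which p53 binds as pairs. An exact half-site was present in 2745 of 32851 windows (8.36%), and a full site, 2 half-sites at most 13 bases apart with at most 2 mismatches, in 1342 (4.09%). Windows, 10 in all, were matched for 7 of the 8 genes, all but Trp63. Exact half-sites lay in 4 windows of 4 genes. They stood 186 bases before the start of Mdm2, 132 before that of Ppm1d and 75 before that of Trp53. In Rchy1 the half-site stood 90 bases before a start that lies within the annotated gene (window chr5:91962507-91962806). The Rchy1 window at the outer gene start, chr5:91963019-91963318, held none. Trp73 held a full site with 2 mismatches, also before a start within the gene, and no match in its outer window. Neither Mdm4 nor Cop1 held a match in its windows. The 2 Mdm genes, Ppm1d and the p53 target Ccng1 are printed in the direction of transcription, with the match in capitals, to set a half-site, no match and a full site beside the RNA levels of the same genes. In Ccng1, which encodes cyclin G1, the full site had 1 mismatch and no spacer. The p53 target Cdkn1a, not printed, held a full site with 0 mismatches and a spacer of 12 bases in its first window, chr17:29090729-29091028. Its second window, chr17:29093519-29093818, held no match.
Mdm2, chr10:117710709-117711008, reverse strand: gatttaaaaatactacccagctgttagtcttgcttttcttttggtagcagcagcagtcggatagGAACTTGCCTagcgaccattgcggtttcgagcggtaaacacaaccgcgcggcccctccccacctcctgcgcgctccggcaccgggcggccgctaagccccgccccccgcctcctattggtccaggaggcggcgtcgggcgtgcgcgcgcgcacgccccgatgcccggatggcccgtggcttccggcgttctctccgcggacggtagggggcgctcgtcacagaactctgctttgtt
Mdm4, chr1:133030538-133030837, reverse strand: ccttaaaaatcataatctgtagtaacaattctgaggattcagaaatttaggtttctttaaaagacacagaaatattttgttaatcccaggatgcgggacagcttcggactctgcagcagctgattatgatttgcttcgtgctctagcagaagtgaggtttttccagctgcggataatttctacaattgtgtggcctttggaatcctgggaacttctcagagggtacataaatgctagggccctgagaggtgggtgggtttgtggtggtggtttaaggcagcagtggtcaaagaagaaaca
Ppm1d, chr11:85311004-85311303, forward strand: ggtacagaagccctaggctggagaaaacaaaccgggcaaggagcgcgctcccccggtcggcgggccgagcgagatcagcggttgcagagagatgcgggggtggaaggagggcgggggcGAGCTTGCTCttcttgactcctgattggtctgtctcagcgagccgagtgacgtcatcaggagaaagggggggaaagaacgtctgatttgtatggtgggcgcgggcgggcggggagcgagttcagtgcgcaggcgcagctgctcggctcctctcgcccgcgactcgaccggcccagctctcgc
Ccng1, chr11:40755237-40755536, reverse strand: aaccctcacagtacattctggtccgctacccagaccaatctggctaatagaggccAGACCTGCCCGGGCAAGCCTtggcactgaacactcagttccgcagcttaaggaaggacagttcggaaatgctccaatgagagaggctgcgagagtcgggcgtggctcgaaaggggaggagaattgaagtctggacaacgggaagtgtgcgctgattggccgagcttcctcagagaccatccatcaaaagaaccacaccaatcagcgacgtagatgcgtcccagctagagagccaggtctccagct
These letters describe the windows alone. p53 sites outside them, as in the first intron of Mdm2, were not searched.

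Few genes passed an adjusted threshold across the whole table, which with 3 tumors per genotype does not show that few differed. Levels are in TPM, which corrects for transcript length and gives every tumor an equal sum, so different genes can be set side by side. Between 14857 and 15234 genes reached 1 TPM per tumor, and 15117 genes that reached 1 TPM in 3 tumors or more were tested with limma on log2(TPM + 1). At an adjusted p-value under 0.05, 25 genes (0.165%) passed, 13 of them lower (0.086%) and 12 higher (0.0794%) in VP tumors, and over all genes the median log2 fold change was -0.07. Correlations of log2(TPM + 1) between tumors were 0.959 to 0.974 within a genotype and 0.948 to 0.970 across genotypes. The 12 epithelial markers summed to 10290 to 10690 TPM in Trp53fl/fl and 11640 to 12620 TPM in VP tumors, and the 12 immune markers to 354 to 656.1 and 1023 to 1753 TPM. Both sums were higher in every VP tumor, the immune one mainly through S100a8 and S100a9, which are abundant in neutrophils. The epithelial sum rose most through Krt19 (means of 2080 and 2727 TPM) and Lgals4 (1711 and 2372 TPM). Of its 12 markers 10 had a positive log2 fold change, but those of Epcam, Cdh1 and Krt18 were only 0.0028, 0.024 and 0.0036. These markers were picked after their values were seen. The 12 stromal and endothelial markers, at 1135 to 1287 and 1104 to 1594 TPM, overlapped. None of these markers passed the adjusted threshold. At an unadjusted p-value under 0.05, 3 of 12 tested epithelial and 3 of 10 tested immune markers were higher and 1 of 12 stromal and endothelial markers was lower, beside 4.51% of all genes higher and 8% lower. Vil1, which encodes villin and lends its promoter to Cre, averaged 205.4 ± 19.8 and 234.3 ± 12.7 TPM (SD, n = 3 each; log2 fold change 0.19, limma adjusted p = 0.496).

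Of the 8 genes, 6 were expressed well enough to be tested, and each of them passed the filter in both genotypes. Trp53 alone passed the adjusted threshold, against 0.086% of all genes in that direction. Trp53, Mdm2 and Mdm4 were lower with an unadjusted p-value under 0.05, as were 8% of all genes, and 0 of the 6 were higher, beside 4.51% of all genes. In Trp53, Mdm2, Mdm4 and Rchy1 every VP tumor lay below every Trp53fl/fl tumor, as in 13.3% of all genes, and in 0 of the 6 above, beside 6.03%. All 6 log2 fold changes were negative, as were 60.8% of all, with a median of -0.35. Trp53 is the gene that Cre deletes, so its part in these counts was set by the design. Among the remaining genes the median was -0.21, the value of Cop1. Of these, Mdm2 and Mdm4 were lower at the unadjusted threshold, and Mdm2, Mdm4 and Rchy1 did not overlap between genotypes.

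**Figure D1:**
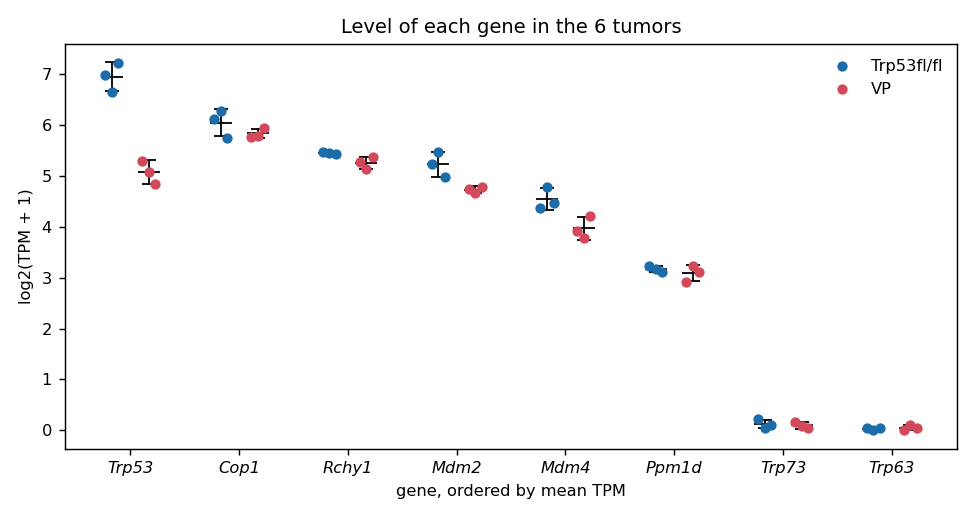
Levels of the 8 genes on the log2(TPM + 1) scale, ordered by mean TPM. Each point is 1 tumor (3 per genotype) and bars give the mean and SD. Trp53 stands highest in Trp53fl/fl tumors but lies near Rchy1 and Mdm2 in VP tumors, and Trp73 and Trp63 lie near 0 in both.

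Trp53 (ENSMUSG00000059552) lies on the forward strand of chromosome 11 from 69580359 to 69591873 (GENCODE M21, build GRCm38, as for all genes here). Trp53fl/fl tumors held 124.94, 99.30 and 147.45 TPM of its RNA, and VP tumors 38.45, 32.79 and 27.83 TPM. The lowest Trp53fl/fl tumor was thus well above the highest VP tumor, and the spread within each genotype was small beside the gap. Trp53 fell from 123.9 ± 24.1 to 33.0 ± 5.31 TPM (SD, n = 3 each), or by a log2 fold change of -1.87 (standard error 0.18, 95% interval -2.29 to -1.45, limma adjusted p = 0.0207). It ranked 10 among all tested genes by p-value and 25 from the lowest by fold change. VP tumors retained 26.7% of the Trp53fl/fl level. Leaving out single tumors moved the fold change only between -2.02 and -1.74, but the adjusted p-value rose to 0.0986 without Trp53fl/fl replicate 1, 0.0553 without Trp53fl/fl replicate 3, 0.0583 without VP replicate 1 and 0.0938 without VP replicate 2.

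The RNA that remained in VP tumors was counted over the whole gene. All 4 annotated protein-coding transcripts of Trp53 have 11 exons, and the first and last exons, which lie outside the loxP sites of the conditional allele, make up 38.4% to 41.6% of their length. RNA from these outer exons, from epithelial cells without deletion and from cells that do not express Cre cannot be told apart in a single value per gene. The immune and epithelial marker sums moved with genotype as given above, and the part of the immune sum in the results on Trp53, its regulators and its targets was not tested. With every tumor divided by the mean of its epithelial markers, the log2 fold change of Trp53 was -2.09 (limma adjusted p = 0.0149). That division also lowered the median of all genes from -0.07 to -0.28, so -2.09 is not read as a stronger decrease of Trp53. No annotated gene overlaps Trp53.

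The RNA of both paralogs was close to 0 in either genotype. Trp63, a regulator of squamous and other stratified epithelia on chromosome 16 from 25683763 to 25892102, was at 0.04, 0 and 0.03 TPM in Trp53fl/fl and 0, 0.08 and 0.04 TPM in VP tumors. Trp73, which acts in multiciliated cells and neurons and lies on chromosome 4 from 154056253 to 154140208, was at 0.16, 0.04 and 0.07 TPM and at 0.12, 0.06 and 0.03 TPM. Values of both genes overlapped and neither was tested, since none reached 1 TPM in any tumor. Markers of cell types in which they are usually found were set beside them. The 3 multiciliated markers together gave 0.97 to 1.21 TPM in Trp53fl/fl and 0.28 to 1.19 TPM in VP tumors. The 6 squamous markers gave 78.2 to 108.7 and 34.86 to 134.5 TPM, so squamous keratins were present although Trp63 was near 0. Both sums overlapped between genotypes. Among the squamous markers Krt5, a basal keratin, did not exceed 1.09 TPM, while Krt14, its usual partner, reached 48.85 to 75.09 and 6.24 to 64.14 TPM. Krt15 was higher in every VP tumor, at 5.54 to 7.10 and 10.98 to 26.91 TPM (log2 fold change 1.21, limma adjusted p = 0.279), and Krt6a lower in every one, at 5.32 to 8.95 and 0.95 to 4.26 TPM (log2 fold change -1.02, limma adjusted p = 0.376). These keratins were picked after their values were seen.

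Mdm2 encodes the main ubiquitin ligase of p53 and is a classic p53 target. The gene (ENSMUSG00000020184) is on the reverse strand of chromosome 10 from 117688875 to 117710758. Its levels were 36.71, 43.19 and 30.48 TPM in Trp53fl/fl tumors and 25.72, 24.25 and 26.61 TPM in VP tumors. Every VP tumor was below every Trp53fl/fl tumor, yet the lowest Trp53fl/fl and highest VP values were close. The mean was 36.8 ± 6.36 against 25.5 ± 1.19 TPM (SD, n = 3 each), or 69.4%, and the log2 fold change of -0.50 (standard error 0.15, 95% interval -0.84 to -0.16) missed the threshold, with a limma adjusted p = 0.311. Mdm2 was also more even in VP tumors, with a coefficient of variation of 4.67% against 17.3%. No test of that spread was made.

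Mdm4, the relative of Mdm2 that binds and silences p53 without being an efficient ligase itself, also ran lower in VP tumors. It (ENSMUSG00000054387) lies on the reverse strand of chromosome 1 from 132959484 to 133030561. Trp53fl/fl tumors had 19.59, 26.51 and 21.21 TPM, and VP tumors 14.20, 12.70 and 17.64 TPM. Again no VP tumor reached the lowest Trp53fl/fl tumor. Its mean was 22.4 ± 3.62 against 14.9 ± 2.53 TPM (SD, n = 3 each), 66.2% of the Trp53fl/fl level, and its log2 fold change was -0.57 (standard error 0.17, 95% interval -0.97 to -0.16, limma adjusted p = 0.317). A pseudogene on the opposite strand within Mdm4, Gm29257, did not exceed 0.49 TPM.

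**Figure D2:**
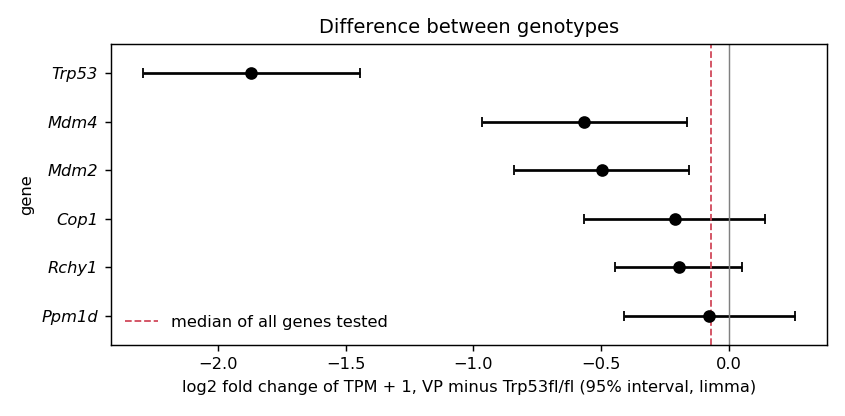
Log2 fold change of TPM + 1, VP minus Trp53fl/fl, for the 6 genes tested, with 95% intervals from limma. The dashed line is the median of all genes tested, -0.07. The intervals of Trp53, Mdm4 and Mdm2 lie below 0, while those of Cop1, Rchy1 and Ppm1d include it.

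The balance between regulator and target was then taken within each tumor. The ratio of Mdm2 to Trp53 RNA, in TPM, was 0.294, 0.435 and 0.207 in Trp53fl/fl tumors and 0.669, 0.740 and 0.956 in VP tumors. Every VP ratio was higher than every Trp53fl/fl ratio, with means of 0.312 ± 0.115 and 0.788 ± 0.1497 (SD, n = 3 each). The difference in log2 ratio was 1.37, with an exact permutation p = 0.1 (two-sided), the smallest that 3 tumors against 3 can give. It follows from the larger difference in Trp53, the gene that Cre deletes, which enters the ratio as its denominator. The separation was thus largely set by the design, and its p-value is not read as a result on Mdm2. The ratio of Mdm4 to Mdm2 was 0.534, 0.614 and 0.696 in Trp53fl/fl and 0.552, 0.524 and 0.663 in VP tumors. These ranges overlapped, and the log2 difference was -0.07 (exact permutation p = 0.6, two-sided).

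Ppm1d encodes Wip1, a phosphatase that reverses the activating phosphorylation of p53 and of its upstream kinases, and is known as a p53 target too. The gene (ENSMUSG00000020525) is on the forward strand of chromosome 11 from 85311244 to 85347066. It was at 8.39, 7.99 and 7.61 TPM in Trp53fl/fl tumors and at 6.57, 8.43 and 7.70 TPM in VP tumors. The genotypes overlapped, and both the lowest and the highest value came from VP tumors. The log2 fold change was -0.08 (standard error 0.14, 95% interval -0.41 to 0.26, limma adjusted p = 0.836), an interval that holds decreases nearly as large as that of Mdm2. Its sign turned under quantile normalization (0.0096) and without VP replicate 1 (0.0107). An exact half-site thus stood before Mdm2 and the deleted Trp53 itself, whose values did not overlap, and before Ppm1d, whose values did. Rchy1, which did not overlap either, held its half-site only before a start within the gene. Without a match in their windows, Mdm4 did not overlap and Cop1 did. The difference between the fold changes of these genes was not tested.

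Rchy1, also called Pirh2, and Cop1 encode ubiquitin ligases that act on p53 independently of Mdm2. Rchy1 (ENSMUSG00000029397, reverse strand of chromosome 5 from 91948904 to 91963068) was at 43.33, 42.66 and 42.04 TPM in Trp53fl/fl tumors and 37.57, 33.98 and 40.15 TPM in VP tumors. The VP tumors were all lower but by little, and the log2 fold change was -0.20 (standard error 0.11, 95% interval -0.44 to 0.05, limma adjusted p = 0.476). Rchy1 shares 680 bases with Thap6 on the opposite strand, which was at 4.44 to 6.54 TPM over the 6 tumors, and since no strand setting is stated its reads cannot be told apart there. A same-strand model, Gm43039, was at most 0.87 TPM. Cop1 (ENSMUSG00000040782, forward strand of chromosome 1 from 159232320 to 159347640) was at 68.64, 75.92 and 52.84 TPM in Trp53fl/fl tumors and 53.70, 54.37 and 60.44 TPM in VP tumors. The genotypes overlapped, Trp53fl/fl replicate 3 being the lowest of all, and the log2 fold change was -0.21 (standard error 0.15, 95% interval -0.57 to 0.14, limma adjusted p = 0.572). It was -0.10 without Trp53fl/fl replicate 2 and -0.36 without Trp53fl/fl replicate 3.

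The order of the genes by level differed between genotypes. In Trp53fl/fl tumors Trp53 led at 123.9 TPM, above Cop1 at 65.8, Rchy1 at 42.7, Mdm2 at 36.8, Mdm4 at 22.4 and Ppm1d at 7.997 TPM. Rchy1 and Mdm2 overlapped there, and the other neighbors did not. In VP tumors Cop1 led at 56.2 TPM, above Rchy1 at 37.2, Trp53 at 33.0, Mdm2 at 25.5, Mdm4 at 14.9 and Ppm1d at 7.57 TPM. Rchy1 and Trp53 overlapped, and Mdm2 stayed below Trp53 in every VP tumor.

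The p53 pathway downstream was represented by 32 known p53 target genes, of which 31 were tested. Phlda3 passed the adjusted threshold as lower and none as higher. At an unadjusted p-value under 0.05, 13 were lower and 0 higher, that is 41.9% of those tested beside 8% of all genes. In 12 of them (38.7%) every VP tumor was below every Trp53fl/fl tumor, beside 13.3% of all genes. The median log2 fold change was -0.30, beside -0.07 over all genes. In all, 25 were negative and 6 positive. These counts include Eda2r, which passed the filter through the Trp53fl/fl tumors alone and so had to be lower. Among the other 30, 12 were lower at an unadjusted p-value under 0.05 (40.0%), 11 without overlap (36.7%), and the median was -0.27.

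Phlda3, an inhibitor of the kinase Akt, was at 63.88, 46.26 and 34.54 TPM in Trp53fl/fl tumors and 13.55, 11.88 and 13.42 TPM in VP tumors. It fell from 48.2 ± 14.8 to 12.9 ± 0.929 TPM (SD, n = 3 each), a difference of -1.78 on the log2 scale (limma adjusted p = 0.0447), near that of Trp53 itself. Its adjusted p-value was 0.05 or more under 9 of 14 alternatives. Psrc1, a microtubule-binding protein of the mitotic spindle, was at 16.16, 17.68 and 9.99 TPM and at 5.22, 4.70 and 3.12 TPM (log2 fold change -1.53, limma adjusted p = 0.114). Ccng1 was at 44.86, 73.81 and 26.25 TPM and at 18.09, 19.80 and 15.49 TPM (log2 fold change -1.28, limma adjusted p = 0.280). Neither overlapped between genotypes, and the Trp53fl/fl tumors were widely spread for Ccng1.

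Eda2r, a death receptor of the TNF receptor family, was at 2.75, 4.95 and 1.18 TPM in Trp53fl/fl tumors and 0.14, 0.35 and 0.05 TPM in VP tumors. No test is read for it, for the reason given above, and the size of its difference was set by the pseudocount, being -1.64 on the log2(TPM + 1) scale and -3.38 with a pseudocount of 0.1. Cdkn1a, which encodes the cell cycle inhibitor p21, was at 160.22, 152.76 and 127.72 TPM and at 97.99, 80.75 and 122.41 TPM, a log2 difference of -0.56 (limma adjusted p = 0.317), about that of Mdm4. Its values did not overlap. Of the genes for the apoptosis factors Puma and Bax, chosen after their values were seen, Bbc3 was at -0.91 on the log2 scale (limma adjusted p = 0.124) and Bax at -0.64 (limma adjusted p = 0.242), and Zmat3, an RNA-binding factor, was at -0.73 (limma adjusted p = 0.182).

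At the other end of the list, Fas, a death receptor, was at 5.98, 6.43 and 6.39 TPM in Trp53fl/fl tumors and 8.75, 7.25 and 6.59 TPM in VP tumors. All VP tumors were higher, by 0.22 on the log2 scale (limma adjusted p = 0.549), or by 0.12 without VP replicate 1. Gls2, the p53-responsive glutaminase, had 0.16, Dcxr, a carbonyl reductase, 0.11, and Plk3, a stress kinase, 0.10 on the log2 scale (limma adjusted p = 0.769, 0.670 and 0.788). These last 3 overlapped between genotypes. Division by the epithelial markers, which lowered the median of all genes from -0.07 to -0.28, took Fas to 0.027 and the other 3 to between -0.11 and -0.0384, still above that median.

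**Figure D3:**
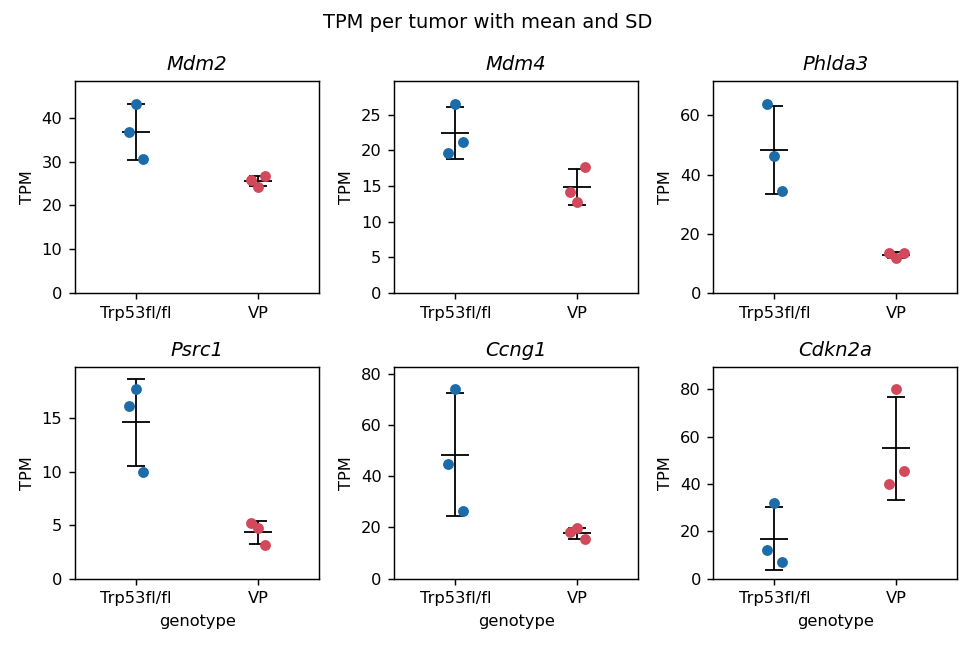
TPM per tumor of Mdm2, Mdm4, the p53 targets Phlda3, Psrc1 and Ccng1, and Cdkn2a, with linear axes from 0. Points are tumors, 3 per genotype, and bars give the mean and SD. VP tumors are lower without overlap for all but Cdkn2a, for which they are higher, and Phlda3 alone of the 6 passed the adjusted threshold.

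Upstream and beside the loop, 48 further regulators of p53 or Mdm2 were listed, and 47 were tested. The remaining symbol, Synv1, probably a misspelling of Syvn1 in the list, matched no row. None passed the adjusted threshold in limma. At an unadjusted p-value under 0.05 there were 6 lower (12.8%, beside 8% of all genes) and 1 higher (2.13%, beside 4.51%). The median log2 fold change was -0.18, with 33 negative and 14 positive, and 9 were lower without overlap (19.1%, beside 13.3% of all genes). By role, the unadjusted calls were 2 of 9 other ubiquitin ligases, 0 of 5 deubiquitinases, 2 of 10 kinases, 2 of 7 acetylation enzymes and 0 of 7 cofactors, all lower, and 1 of 9 Arf and ribosomal or nucleolar Mdm2 binders, which was higher. With 5 to 10 genes per role, counts of 0 to 2 are too small to set against these shares.

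That one was Cdkn2a, whose locus encodes both Arf, which sequesters Mdm2 and so protects p53, and the cell cycle inhibitor Ink4a. It was at 11.95, 31.92 and 7.10 TPM in Trp53fl/fl tumors and 39.84, 79.97 and 45.44 TPM in VP tumors. Every VP tumor was higher, though replicate 2 stood above the others in both genotypes. The log2 fold change was 1.82 (standard error 0.51, 95% interval 0.63 to 3.02) with a limma adjusted p = 0.301, and a value per gene cannot tell the Arf and Ink4a transcripts apart.

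The kinase Csnk1a1, which works with Mdm4 to inhibit p53, had the lowest adjusted p-value of the regulators. It was at 241.63, 225.13 and 205.04 TPM in Trp53fl/fl tumors and 152.62, 148.53 and 155.52 TPM in VP tumors, without overlap (log2 fold change -0.55, limma adjusted p = 0.145). Hipk2, which phosphorylates p53 in apoptosis, was at 12.15, 10.38 and 11.34 TPM and at 7.78, 7.98 and 7.57 TPM, also without overlap (log2 fold change -0.48, limma adjusted p = 0.278). The checkpoint kinase Chek1 did not overlap and was at -0.56 on the log2 scale (limma adjusted p = 0.435), but at -0.28 without VP replicate 3, its lowest tumor. The deacetylase Sirt1, at -0.42 (limma adjusted p = 0.482), overlapped between genotypes and was at -0.28 without Trp53fl/fl replicate 2 and -0.65 without Trp53fl/fl replicate 3. After Cdkn2a, the highest values were those of Usp2, a deubiquitinase of Mdm2, at 0.50, the checkpoint kinase Chek2 at 0.30 and Daxx, an Mdm2-binding chaperone, at 0.27 (limma adjusted p = 0.496, 0.510 and 0.453). All 3 overlapped. With single tumors left out they ranged from 0.27 (without VP replicate 1) to 0.68 for Usp2, from 0.16 (without Trp53fl/fl replicate 1) to 0.47 (without Trp53fl/fl replicate 3) for Chek2, and from 0.17 (without Trp53fl/fl replicate 2) to 0.37 for Daxx, and Usp2 was at 0.29 without Trp53fl/fl replicate 2.

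**Figure D4:**
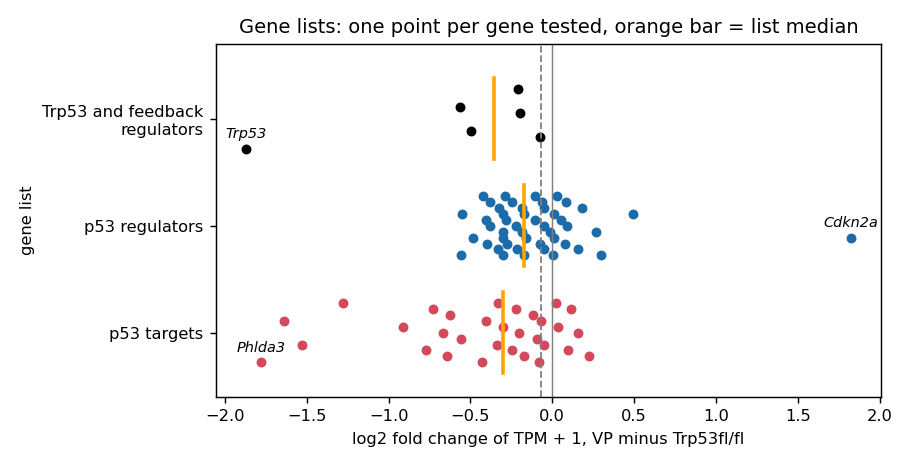
Log2 fold change of TPM + 1, VP minus Trp53fl/fl, for each tested gene among the feedback genes (6), the p53 regulators (47) and the p53 targets (31). Orange bars are list medians (-0.35, -0.18 and -0.30), the dashed line is the median of all genes, and height within a list only separates the points. The feedback genes and their median include Trp53, which Cre deletes in VP tumors. Phlda3 is the lowest target, Cdkn2a the highest regulator.

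Finally, the genes whose levels ran most closely with each feedback gene over the 6 tumors were listed as a description. They share tumors and genotypes with it, and many genes reach high values with so few points. Pearson correlations of log2(TPM + 1) exceeded 0.9 for 280 genes with Trp53 (1.85%), 832 with Mdm2 (5.50%) and 379 with Mdm4 (2.51%). Closest to Trp53 were an unnamed assembled gene (0.993), Wipf3, Gimap7, Ndufc1 and the mismatch repair gene Msh3 (0.991). Mdm2 ran closest with the splicing factor genes Srek1 (0.995) and Sf3b1, followed by Dnaja1, Ddi2 and Twsg1 (0.994). For Mdm4 the closest were Rab3gap2 (0.997), AI480526, Crtc3, Afp and Cnpy1 (0.989). None of the 3 genes was among the 5 closest of another.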

How the data were processed

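The authors extracted RNA from tumor tissue with TRIzol, built Illumina libraries and deposited TPM per gene, rounded to 2 decimals. The submitters' processing notes name HISAT2, StringTie and mm9 without versions or settings, and whether counting used strand is not given in the sources used here. TPM hold no counts, so the depth of each tumor is unknown, no counting interval can be given and no count test was run. A change in abundant transcripts shifts all other TPM of a tumor.

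Each column was assigned to a tumor through its code in the labels. None was left over, and no 2 columns were identical. Of 54167 gene IDs, 52147 (96.27%) are in GENCODE M21 (GRCm38), the source of coordinates, which were not in the file. Promoter windows came from RefSeq (GRCm38.p6), and genome and protein sequences were not used here.

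log2(TPM + 1) of genes that reached 1 TPM in 3 tumors or more was tested with limma 3.58.1 in R 4.3.3 (genotype only, empirical Bayes with trend, Benjamini-Hochberg adjustment over all 15117 genes). Fold changes on this scale understate those of low genes. The fit was first tested on simulated data. There, 44 of 100 genes with a log2 change of 1 were called, 80 of 100 with a change of 2, and 8 of 14917 unchanged genes. A gene that misses the threshold may thus still differ. Ratios were compared by an exact permutation test. No set test was made, and lists are given by counts and medians beside those of all genes.

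The members, lists and tests were chosen with earlier results of these data known. Genes named are all members, overlapping genes, list genes past the threshold, the 4 largest decreases and 4 largest increases of each list, Cdkn1a, Ccng1, Cdkn2a and Vil1, the 5 genes most like Trp53, Mdm2 and Mdm4, and others only as chosen after their values were seen or as background. Alternatives were another pseudocount, other filters, 3 other scalings, a replicate block, no trend, and each tumor left out in turn.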

Additional observations from a re-analysis of the deposited data

How the results depend on the processing

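Over 14 alternatives, the sign held for Trp53, Mdm2, Mdm4, Rchy1 and Cop1, and only Trp53 ever passed the adjusted threshold among the 6 genes tested. The log2 fold change of Trp53 stayed at -1.87 with no filter on low values (limma adjusted p = 0.104) and with the replicate number as a block (limma adjusted p = 0.0883), both above 0.05, and ranged from -2.02 to -1.74 with single tumors left out. Its call was lost in 6 of the 14 alternatives. Without a filter 27871 genes were tested; the cause of the other losses was not tested. Mdm2 ranged from -0.72 to -0.43 over the settings other than left-out tumors and from -0.62 to -0.38 with single tumors left out, and Mdm4 from -0.78 to -0.50 and from -0.69 to -0.44. The values -0.72 and -0.78 came from division by the epithelial marker mean, which moved the median of all genes from -0.07 to -0.28. Ppm1d turned to 0.0096 under quantile normalization and ranged from -0.15 to 0.01 with single tumors left out, being 0.0107 without VP replicate 1. With a pseudocount of 0.1 the log2 differences of Trp63 and Trp73 came to 0.16 and -0.15. With no filter both were tested (limma adjusted p = 0.849 and 0.876). Rchy1 and Cop1 were at -0.42 and -0.43 after the epithelial division, and Rchy1 at -0.13 after median-of-ratios rescaling. With single tumors left out the log2 ratio difference of Mdm4 to Mdm2 ranged from -0.16 to 0.02 (0.024 without Trp53fl/fl replicate 3), and that of Mdm2 to Trp53 from 1.11 to 1.64.

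Genes called numbered 25, against 7 with no filter, 51 after division by the epithelial marker mean, 10 with the replicate block and 6 to 28 with single tumors left out (8 without Trp53fl/fl replicate 1, 10 without Trp53fl/fl replicate 3, 9 without VP replicate 1 and 6 without VP replicate 2). The higher share of calls was 48.0%, 59.1% after median-of-ratios rescaling, 23.5% after the epithelial division, 70.0% with the block and 58.8% to 75.0% with single tumors left out. Of the p53 targets, 0 were called with no filter, median-of-ratios rescaling, the block or no trend, 2 after the epithelial division (Phlda3 and Bbc3, the latter -1.11, limma adjusted p = 0.0438), and 0 to 1 with single tumors left out. Phlda3 had limma adjusted p-values of 0.0288 to 0.208. Regulators lower at an unadjusted p-value under 0.05 numbered 26 after the epithelial division and 2 to 9 with single tumors left out, against 6. The share of all genes lower at that threshold was not taken under these alternatives. Since the epithelial division moved the median of all genes to -0.28, the 26 cannot be read as a trait of the regulators. Plk3 (-0.11), Dcxr (-0.11) and Gls2 (-0.0384) were negative after the epithelial division, Gls2 also without Trp53fl/fl replicate 3 (-0.016, highest 0.34 with other tumors left out) and Plk3 without VP replicate 1 (-0.0062, highest 0.18). Chek2 was at 0.088 and Daxx at 0.048 after the same division. Alternatives for single list genes and the target counts without Eda2r were added after seeing the data.

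Deviations of same-numbered tumors correlated at 0.0185, -0.052 and 0.0175, within the range of differently numbered tumors (-0.108 to 0.095). These values gave no sign that the numbers pair the tumors, but with 3 tumors per genotype they cannot exclude it. With 3 tumors per genotype, intervals such as that of Ppm1d (-0.41 to 0.26) leave room for differences in either direction, and the depth behind each value is unknown.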
